A study of Homo sapiens with 12 samples.

Results

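The metallothioneins and the genes around them in the zinc response were followed in human embryonic kidney cells after knockdown of chromatin regulators. The 8 genes, taken as a list by symbol, were MT2A, MT1E, MT1F, MT1G, MT1M and MT1X, the zinc-sensing transcription factor MTF1 and the zinc exporter SLC30A1, out of 58662 gene identifiers matched to the annotation. Their RNA was measured in HEK293T, a kidney-derived line that carries the SV40 large T antigen, in 12 libraries of 6 groups with 2 libraries each. All groups were of the WT genotype and differed only in the transfected small interfering RNA: a control (siCTL) or one against CARM1 (siCARM1), CHD4 (siCHD4), HDAC2 (siHDAC2), GATAD2A (siGATAD2A) or KDM1A (siKDM1A). CARM1 is an arginine methyltransferase. CHD4, HDAC2 and GATAD2A are subunits of the NuRD chromatin remodeling complex, and KDM1A is a histone demethylase found with it. The comparison of each knockdown with siCTL asks which genes differ under that small interfering RNA. Effects of the RNA apart from those on its target cannot be told apart from loss of the regulator. No added metal is named in the labels.

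Each library held 19308315 to 28648657 counted fragments on genes, with a median of 24292682. Fragments with several locations were 5.44% to 10.6% of a library and were highest in siCTL replicate 1. The knockdowns left CARM1 at 19.2%, HDAC2 at 19.6%, GATAD2A at 29.7% and KDM1A at 16.6% of the siCTL mean in their own groups. CHD4 was left at 68.6%, with 25.6 ± 0.818 CPM (the count scaled to the library total) in siCHD4 and 37.3 ± 0.112 in siCTL (SD, n = 2). It was also lower in siCARM1, at 29.7 ± 1.30 CPM. GATAD2A was higher in siCHD4, at 346 ± 2.07 CPM against 164 ± 10.3 in siCTL, a fold of 2.12 (edgeR's quasi-likelihood test, adjusted p = 1.9e-17). Of the 5 markers expected in this line, NEFL, VIM and LIN28B were present in every library, whereas NEFM reached at most 0.708 CPM and PAX2 at most 2.16 CPM. Of the blood markers, PTPRC reached at most 1 count in a library and CD74 had 2 to 26 counts, at most 1.04 CPM. Of the breast luminal markers, ESR1 reached at most 0.56 CPM, whereas GREB1 stood at 52.8 to 54.1 CPM in siCHD4 and at 11.4 to 15.5 CPM in the other groups. The labels do not say that replicates came from separate cultures, nor which of the providers named for sequencing handled which library, so p-values measure the spread between these libraries.

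Metallothioneins are small cysteine-rich proteins that bind zinc, copper and cadmium, and their genes are induced when free zinc rises. MTF1 senses zinc through its zinc fingers and binds metal response elements, short motifs upstream of the metallothionein genes and of SLC30A1. SLC30A1 (also called ZnT1) carries zinc out of the cell across the plasma membrane. Metallothionein genes also respond to glucocorticoids, and in many cell types MT2A is the most abundant of them.

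The 6 metallothioneins lie within 75.6 kb of chromosome 16 (chr16:56642496-56718108, GRCh37), a span that holds 14 annotated metallothionein loci. MT2A occupies chr16:56642496-56643409 on the plus strand. MT1F occupies chr16:56691643-56694610 and MT1X chr16:56716382-56718108, both on the plus strand. The 3 others in the cluster are MT1E at chr16:56659387-56661024, MT1M at chr16:56666571-56667893 and MT1G, on the minus strand, at chr16:56700642-56701977. MTF1 lies at chr1:38275246-38325264 and SLC30A1 at chr1:211744910-211752503, both on the minus strand.

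The 250 bases upstream of the annotated start are shown for 3 genes, because this is where the metal response elements of the family are known to lie. The sequences are those of RefSeq for GRCh38.p14, and each was found once, letter for letter, in GRCh37, whose coordinates are given. Capitals mark matches to the core motif TGCACNC or TGCGCNC, searched on both strands. A match on the other strand appears as its reverse complement, and none of the matches overlap each other. MT2A, MT1X, MTF1 and SLC30A1 were in the RefSeq table used here, and MT1E, MT1F, MT1G and MT1M were not.
MT2A, chr16:56642246-56642495, plus strand: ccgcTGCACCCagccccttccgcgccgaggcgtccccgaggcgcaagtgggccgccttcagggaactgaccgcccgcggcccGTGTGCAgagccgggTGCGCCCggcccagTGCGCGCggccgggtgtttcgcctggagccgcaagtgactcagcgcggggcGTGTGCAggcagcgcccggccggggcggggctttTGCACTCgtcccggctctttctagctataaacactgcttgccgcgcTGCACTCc
MT1X, chr16:56716132-56716381, plus strand: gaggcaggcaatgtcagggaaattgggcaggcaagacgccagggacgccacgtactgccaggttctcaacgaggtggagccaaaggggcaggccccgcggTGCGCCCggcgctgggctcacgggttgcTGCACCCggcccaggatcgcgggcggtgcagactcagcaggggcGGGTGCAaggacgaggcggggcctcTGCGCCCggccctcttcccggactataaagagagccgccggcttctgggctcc
SLC30A1, chr1:211752504-211752753, minus strand: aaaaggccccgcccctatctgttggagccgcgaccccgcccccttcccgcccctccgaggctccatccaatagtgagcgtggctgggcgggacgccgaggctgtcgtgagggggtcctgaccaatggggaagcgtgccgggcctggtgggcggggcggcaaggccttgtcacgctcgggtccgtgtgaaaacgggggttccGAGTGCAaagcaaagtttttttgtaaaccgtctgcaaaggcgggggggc

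The MT2A window held 7 matches, 5 on the gene's strand and 2 on the other, spread from base -246 to base -2 relative to the start. Of the 35114 RefSeq promoters searched over the same length, 0.0313% held at least 7. MT1X held 4 matches between base -150 and base -47, a number reached by 0.37% of promoters. SLC30A1 held 1 match, at bases -49 to -43, and 24.8% of promoters held at least 1. MTF1 held 0. A match is a string of letters and was not tested as a binding site.

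**Figure D1:**
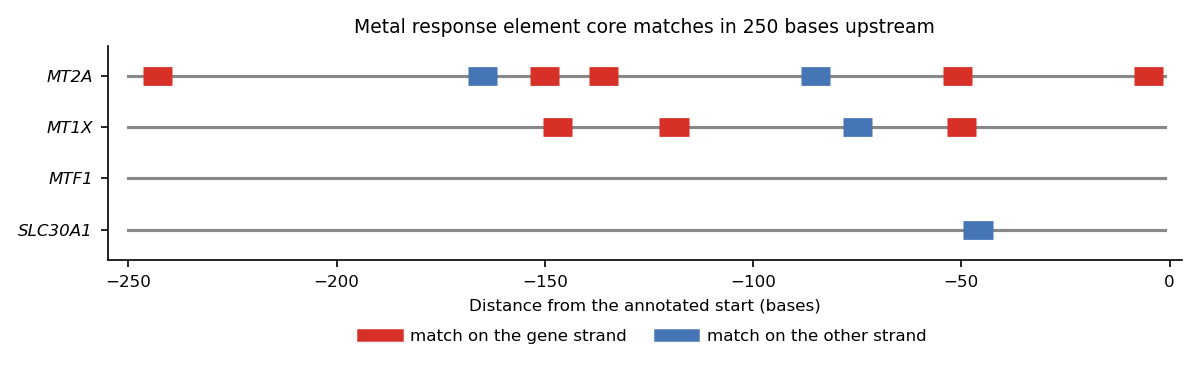
Matches to the metal response element core in the 250 bases upstream of 4 genes. The horizontal axis is the distance from the annotated start in bases, and boxes are matches on the gene strand (red) or the other strand (blue). MT2A carries 7, MT1X 4, SLC30A1 1 and MTF1 0.

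Of the 8 genes, 5 had enough counts to be tested: MT2A, MT1F, MT1X, MTF1 and SLC30A1. A coding gene was tested where the mean FPKM of some group (the count scaled to exon length and to the library total) exceeded 0.5, which 12830 genes met. MT1E had 2 counts over the 12 libraries, 1 in siHDAC2 replicate 2 and 1 in siKDM1A replicate 2. MT1G had 2 counts, both in siCARM1 replicate 2, and MT1M had 0. A count of 0 allows up to 3 counts, or 0.105 to 0.154 CPM depending on the library. This bound covers MT1M in every library, and MT1E and MT1G only in the libraries where their count was 0.

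Per length of the canonical transcript, MT2A was the most abundant of the 8, with a mean FPKM of 31.7 over the 12 libraries. The FPKM of SLC30A1 was 8.88, that of MTF1 4.58, that of MT1X 2.88 and that of MT1F 2.62. Over all exonic bases, the length used in the filter, the mean was 0.674 for MT1X and 0.600 for MT1F, close to the minimum of 0.5. By group it lay under that minimum for MT1X in siGATAD2A (0.305) and for MT1F in siCARM1 (0.330) and siCHD4 (0.483). In counts, MT2A took 84.8% of the 4339 metallothionein counts, MT1X 7.67% and MT1F 7.42%. By library, the share of MT2A ran from 78.5% in siCTL replicate 1 (Wilson 95% interval 73.9% to 82.6%) to 88.8% in siKDM1A replicate 2 (86.0% to 91.1%). Intervals of this kind cover counting error only. Of the 75-base stretches of the MT2A, MT1F and SLC30A1 transcripts, 0% occurred elsewhere in GRCh37 or in transcripts of other genes. For MT1X, 3.94% of the stretches occurred elsewhere in the genome and 36.1% in transcripts of other genes. One of those, a noncoding transcript on the same strand, shares 18.6% of the MT1X exonic bases and had 0 counts in all libraries. This 0 does not show how many reads MT1X loses, because a fragment in exons of both genes is counted for neither.

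MT2A, the main metallothionein of these cells, fell in siGATAD2A and rose in siKDM1A. Its level was 13.7 and 11.2 CPM in the siCTL replicates. In siGATAD2A it was 6.99 and 5.40 CPM, below all 10 other libraries. In siKDM1A it was 20.9 and 20.5 CPM, above all 10 others. Against siCTL the log2 fold change was -0.99 in siGATAD2A (SE 0.133, adjusted p = 2.4e-07, a fold of 1.99) and 0.74 in siKDM1A (SE 0.113, adjusted p = 3.8e-06, a fold of 1.67). Except where DESeq2 is named, every p-value given here comes from edgeR's quasi-likelihood test with Benjamini-Hochberg adjustment over all genes tested. The calls required this p to be at most 0.05 and the fold to be 1.2 or more. In size, the change was larger than that of 95.7% of the genes tested in siGATAD2A and 94.2% in siKDM1A. Both calls held when any 1 of the 12 libraries was left out, with ranges of -1.20 to -0.83 in siGATAD2A and 0.59 to 0.89 in siKDM1A. The fibroblast marker COL1A1 was also above its siCTL level (105 CPM in both libraries) in siKDM1A, at 109 and 123 CPM, and below it in siGATAD2A, at 74.8 and 77.4 CPM. It was also below siCTL in siCARM1 (73.5 and 77.2 CPM), siCHD4 (77.7 and 79.4 CPM) and siHDAC2 (79.6 and 84.4 CPM), where MT2A was not called. The fibroblast marker DCN reached at most 0.07 CPM in any library. VIM was at 375 CPM in both siCTL libraries, at 239 and 242 CPM in siGATAD2A and at 601 and 628 CPM in siKDM1A. It was also above siCTL in siCARM1 (659 and 703 CPM), siCHD4 (646 and 662 CPM) and siHDAC2 (486 and 504 CPM). LIN28B was above its siCTL level (63.2 and 66.1 CPM) in siGATAD2A (88.9 and 94.8 CPM) and in siKDM1A (76.7 and 83.1 CPM).

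The other 3 knockdowns left MT2A closer to siCTL. It was 13.1 and 11.3 CPM in siCARM1, 11.1 and 10.0 CPM in siCHD4, and 13.6 and 14.6 CPM in siHDAC2. The siCARM1 and siHDAC2 replicates overlapped those of siCTL, and the siCHD4 replicates lay just under them. The 95% interval of the log2 fold change was -0.26 to 0.23 in siCARM1, -0.48 to 0.02 in siCHD4 and -0.05 to 0.43 in siHDAC2. These values did not pass the threshold, although without siCTL replicate 2 the siCHD4 value became -0.38 (adjusted p = 0.026). In bulk RNA, fewer cells that express a gene and less RNA per cell cannot be told apart.

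The MT1 genes that were detected did not repeat the MT2A pattern in full, and both rested on few counts. MT1X had 44 and 22 counts in siCTL, or 2.26 and 0.953 CPM, a ratio of 2.37 between replicates. The exact 95% Poisson interval was 32.0 to 59.1 for the first count and 13.8 to 33.3 for the second. These intervals are on counts not scaled to library size. The library with the lower count was the larger (23069839 against 19308315 fragments on genes), so in CPM the intervals lie further apart. In siGATAD2A it had 10 and 16 counts, or 0.382 and 0.665 CPM, below all other libraries. Its log2 fold change there was -1.58 (SE 0.413, adjusted p = 0.0019). Without siCTL replicate 1 the value became -0.87 (adjusted p = 0.16), so the call rested on that library. The 8 libraries of siCARM1, siCHD4, siHDAC2 and siKDM1A lay between 0.939 and 1.47 CPM and inside the span of the siCTL pair, with 1 exception in siCARM1 just under it. In those 4 comparisons MT1X was not called, and the fold change turned positive in each without siCTL replicate 1.

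MT1F was lowest in siCARM1. It had 29 and 23 counts in siCTL, or 1.49 and 0.996 CPM, and 19 and 12 counts in siCARM1, or 0.680 and 0.537 CPM. Both siCARM1 libraries lay below the 10 others, the nearest being siGATAD2A replicate 2 at 0.706 CPM. The log2 fold change was -0.99 (SE 0.381, adjusted p = 0.033). The call was lost without siCTL replicate 1 (adjusted p = 0.26), without siCARM1 replicate 1 (0.057), without siCARM1 replicate 2 (0.14) and with DESeq2 (0.077). In siGATAD2A the replicates spread from 1.30 to 0.706 CPM, and the interval of the log2 fold change was -0.97 to 0.43. The intervals were -1.14 to 0.30 in siCHD4, -0.36 to 0.94 in siHDAC2 and -0.45 to 0.86 in siKDM1A.

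The summed level of the 6 metallothioneins followed MT2A, which supplies most of it. It was 15.3 ± 3.08 CPM in siCTL, 23.3 ± 0.285 in siKDM1A and 7.72 ± 1.34 in siGATAD2A (SD, n = 2). The other groups held 16.9 ± 0.969 (siHDAC2), 14.0 ± 1.65 (siCARM1) and 12.7 ± 0.594 CPM (siCHD4). Relative to siCTL the sum was 0.504 in siGATAD2A and 1.52 in siKDM1A. The sum over these chosen genes was not tested, and the tests given are those of its single genes. The libraries of siGATAD2A (8.67 and 6.77 CPM) and of siKDM1A (23.5 and 23.1 CPM) did not overlap with any other group.

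**Figure D2:**
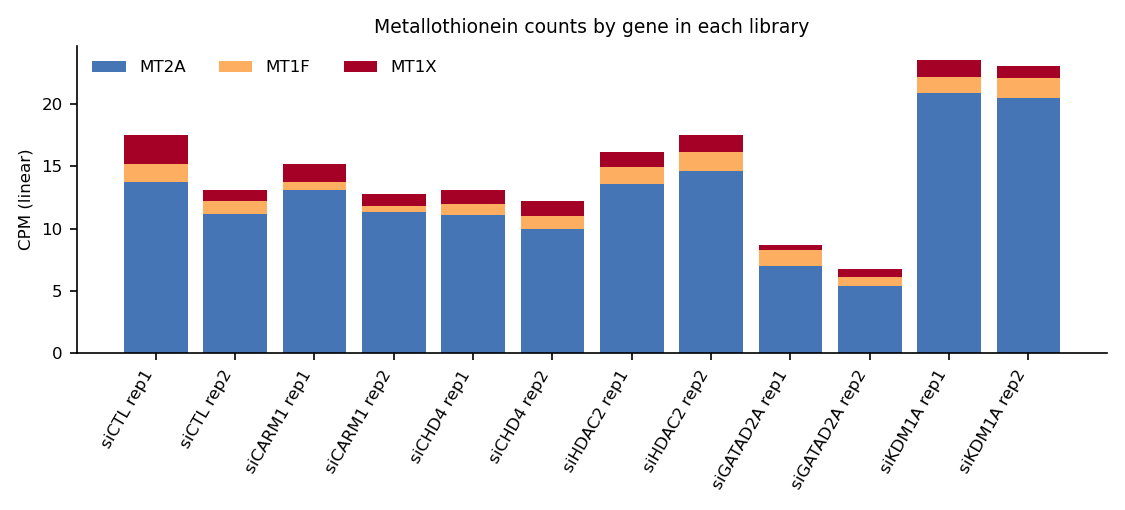
Stacked bars of MT2A, MT1F and MT1X in CPM for each of the 12 libraries, on a linear axis from 0. The bars of siGATAD2A are the shortest, at 8.67 and 6.77 CPM for all metallothioneins, those of siKDM1A the tallest, and MT2A fills most of every bar.

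MTF1, the transcription factor, rose in siCHD4 and was not called in the other knockdowns. It was 34.1 and 32.4 CPM in siCTL and 44.9 and 38.9 CPM in siCHD4, a log2 fold change of 0.33 (SE 0.0746, adjusted p = 0.00025). Without siCHD4 replicate 1 it was 0.23 (adjusted p = 0.027), under the fold minimum. In siGATAD2A, where MT2A fell, MTF1 was at 40.8 and 37.9 CPM, both above the siCTL pair. That value, 0.25 (SE 0.0749, adjusted p = 0.007), passed the p threshold but not the fold minimum. MTF1 was at 37.9 and 35.3 CPM in siHDAC2 and at 34.7 and 36.2 CPM in siKDM1A, also above the siCTL pair. In siCARM1 it was at 30.4 and 33.0 CPM, overlapping siCTL.

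SLC30A1, the exporter, was lowest in siCTL and rose in 3 knockdowns. Its level was 44.4 and 45.2 CPM in siCTL, below all 10 other libraries. In siKDM1A it was 57.0 and 60.7 CPM, and the log2 fold change was 0.39 (SE 0.0671, adjusted p = 1.9e-05). In siCHD4 it was 57.3 and 56.7 CPM, with a log2 fold change of 0.35 (SE 0.0673, adjusted p = 4.2e-05). The siHDAC2 libraries held 54.2 and 54.0 CPM, and the log2 fold change of 0.27 (SE 0.0677, adjusted p = 0.0022) stood close to the fold minimum. It lay under that minimum without siCTL replicate 1 (0.26), in counts without regard to strand (0.23) and in a fit that kept every biotype (0.25).

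In siCARM1 the SLC30A1 replicates were 48.0 and 57.3 CPM, and the log2 fold change of 0.23 (adjusted p = 0.0066) was under the fold minimum. Without siCARM1 replicate 1 it was 0.35 and was called. In siGATAD2A the level was 46.3 and 47.4 CPM. The interval there, -0.08 to 0.20, was the one nearest to 0 among the 5 knockdowns. Thus in siKDM1A both the exporter and MT2A rose, in siCHD4 and siHDAC2 the exporter rose with no call on MT2A, and in siGATAD2A MT2A fell with no call on the exporter.

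Over the 5 tested genes and 5 knockdowns, 8 of 25 comparisons with siCTL were called, 3 lower and 5 higher. By knockdown, 1 of 5 genes was called in siCARM1 where 29.3% of all genes tested were, and 2 of 5 in siCHD4 against 48.8%. In siHDAC2 1 of 5 was called against 19.7%, in siGATAD2A 2 of 5 against 33.9%, and in siKDM1A 2 of 5 against 25.8%. These shares are close to those of all genes, and the 5 comparisons share the 2 siCTL libraries. A test of any difference over the 6 groups, with no fold minimum, passed for all 5 genes, as it did for 91.1% of genes tested. Its adjusted p was 4.99e-12 for MT2A, 8.43e-06 for SLC30A1, 7.32e-05 for MTF1, 0.0147 for MT1F and 0.0205 for MT1X. The median log2 fold change of the 5 genes was highest in siKDM1A (0.21) and siHDAC2 (0.19). It was -0.07 in siCARM1 and -0.23 in siCHD4, and lowest in siGATAD2A (-0.27). Over all genes tested the median lay between -0.006 and 0.

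**Figure D3:**
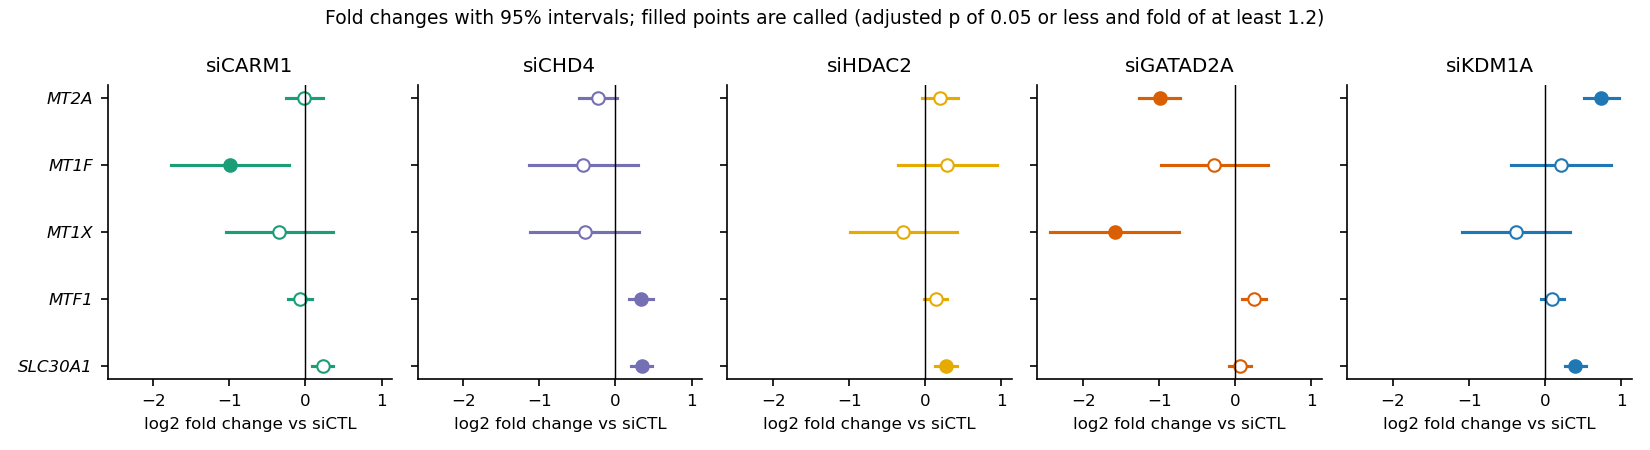
Log2 fold change of the 5 tested genes against siCTL in each knockdown, with 95% intervals as lines. Filled points are called. MT2A lies left of 0 in siGATAD2A and right of 0 in siKDM1A, and the intervals of MT1F and MT1X are the widest.

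Direct comparisons of the knockdowns placed the MT2A groups in an order. From the lowest, siGATAD2A (6.20 CPM) differed from siCHD4 (10.6 CPM) by 0.76 on the log2 scale (adjusted p = 1.1e-05). From siCHD4 over siCARM1 (12.2 CPM) and siCTL (12.5 CPM) to siHDAC2 (14.1 CPM), no neighbours differed past the threshold. At the top, siKDM1A (20.7 CPM) was above siHDAC2 by 0.55 (adjusted p = 0.00026). The ends of the order, siGATAD2A and siKDM1A, differed by -1.73 (SE 0.123, adjusted p = 5.5e-13), with 32.1% of all genes tested called in that comparison. MT2A was called in 8 of the 10 comparisons between knockdowns. The 2 without a call were siCARM1 against siCHD4 (0.21, interval -0.03 to 0.46) and siCARM1 against siHDAC2 (-0.21, interval -0.44 to 0.03).

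For MT1X, siGATAD2A was lower than each of the 4 other knockdowns, by 1.18 to 1.30 on the log2 scale and with adjusted p-values of 0.012 to 0.02. These comparisons do not use siCTL, but each of the 4 calls was lost without siGATAD2A replicate 1, where the difference was 0.82 to 0.94 and the adjusted p 0.14 to 0.19. Each was also lost without 1 further library: siCARM1 replicate 1 (0.85), siCHD4 replicate 2 (1.10), siHDAC2 replicate 2 (1.22) and siKDM1A replicate 1 (0.98), in the comparison that uses it. No other neighbours in the MT1X order differed past the threshold. MT1F was lower in siCARM1 than in siHDAC2 (-1.28, adjusted p = 0.0053) and than in siKDM1A (-1.19, adjusted p = 0.0093). The first call was lost without siHDAC2 replicate 2 (-1.18, adjusted p = 0.057). The second was lost without siCARM1 replicate 2 (-1.05, adjusted p = 0.06) and without siKDM1A replicate 2 (-1.06, adjusted p = 0.075). Over the 12 libraries left out in turn, the values ran from -1.48 to -1.13 and from -1.39 to -1.05.

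MTF1 was lower in siCARM1 than in siCHD4 (-0.41, adjusted p = 1.7e-05) and than in siGATAD2A (-0.32, adjusted p = 0.00061). The latter value fell just under the fold minimum without siCARM1 replicate 1 (-0.257) and without siGATAD2A replicate 1 (-0.261). In the order of MTF1 means no neighbours differed past the threshold. SLC30A1 was higher in siCHD4 than in siGATAD2A (0.28, adjusted p = 0.00041) and lower in siGATAD2A than in siKDM1A (-0.33, adjusted p = 9.9e-05). In its order, siGATAD2A (46.8 CPM) and siCARM1 (52.6 CPM) differed by 0.16 (adjusted p = 0.039), under the fold minimum, and no other neighbours passed the p threshold.

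In all, 18 of 50 comparisons of these genes between knockdowns were called. The share of all genes tested that were called was 47.7% for siCARM1 against siCHD4, where 1 of 5 was called, 19.3% for siCARM1 against siHDAC2 (1 of 5), 33.8% for siCARM1 against siGATAD2A (3 of 5) and 21.0% for siCARM1 against siKDM1A (2 of 5). It was 48.8% for siCHD4 against siHDAC2 (1 of 5), 44.7% for siCHD4 against siGATAD2A (3 of 5) and 47.7% for siCHD4 against siKDM1A (1 of 5). For siHDAC2 it was 29.5% against siGATAD2A (2 of 5) and 14.3% against siKDM1A (1 of 5). In siGATAD2A against siKDM1A 3 of 5 were called, all lower in siGATAD2A, against 32.1% of all genes.

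Other metallothionein loci gave almost no reads. Of 15 further genes and pseudogenes of the family, 13 had 0 counts in all 12 libraries, among them MT1A, MT1H and the brain form MT3. The pseudogenes MT1XP1 and MT1P1 had 38 and 54 counts in total, and reads of pseudogenes cannot be fully told apart from those of their parents. None of the 15 was tested.

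Other zinc exporters of the SLC30A family were tested as a list of 9, of which 7 had enough counts. Over the 5 comparisons with siCTL, 6 of 35 were higher, 2 lower and 27 neither. That is 22.9% called, where all genes tested gave 31.5% over the same 5 comparisons. SLC30A3, which loads zinc into synaptic vesicles in neurons, had the largest change, 2.79 in siCHD4 (SE 0.187), from 1.98 CPM in siCTL. It was also higher in siGATAD2A (1.01) and siKDM1A (0.62). SLC30A2, an exporter known for zinc secretion into milk, was at 0.448 CPM in siCTL and was higher in siCHD4 (2.62) and siKDM1A (1.79). SLC30A7, which moves zinc into the Golgi, was higher in siCHD4 (0.46) and lower in siKDM1A (-0.27), and SLC30A4 was lower in siKDM1A (-0.35). The median over the list was lowest in siHDAC2 (-0.02) and highest in siKDM1A (0.18).

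Zinc importers of the SLC39A family bring zinc into the cytosol. Of 14 listed, 11 were tested, and 9 of 55 comparisons were higher, 6 lower and 40 neither, which is 27.3% called against 31.5% of all genes. In siCHD4 5 of the 11 were higher and 3 lower, where 48.8% of all genes were called. In siKDM1A 1 was higher and 3 lower, where 25.8% of all genes were called. SLC39A4, the importer of dietary zinc, was higher in siCHD4 (0.83) and siGATAD2A (0.33) and lower in siKDM1A (-0.33). SLC39A6 was higher in siCHD4 (0.32) and siKDM1A (0.42), and SLC39A3 was lower in both (-0.46 and -0.35). SLC39A7, which releases zinc from the endoplasmic reticulum, was higher in siCHD4 (0.41) and siGATAD2A (0.35), as was SLC39A14 (0.31 in both). The list median ran from -0.09 in siKDM1A to 0.18 in siCHD4.

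Copper is the other physiological metal of metallothioneins. Of 10 copper genes 9 were tested, and 8 of 45 comparisons were higher, 2 lower and 35 neither, which is 22.2% called against 31.5% of all genes. The copper importer SLC31A1 (CTR1) fell in siGATAD2A by 1.62 on the log2 scale (SE 0.0515, adjusted p = 5.6e-21), and there it was the only gene of the list called. In siCTL it stood at 144 CPM. ATP7A, a copper-exporting ATPase, was higher in siCARM1 (0.35), siCHD4 (0.57) and siKDM1A (0.30). CCS, the copper chaperone of superoxide dismutase, was higher in siHDAC2 (0.30) and siKDM1A (0.38), and SOD1 itself was higher in siCARM1 (0.30) and siCHD4 (0.27). SLC31A2 was higher in siCHD4 (0.75) and lower in siKDM1A (-0.37). The list median lay between -0.09 and 0.10.

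Genes of the oxidative stress response driven by NRF2 share inducers such as heavy metals with the metallothioneins. Of 13 listed, 12 were tested, with 20 of 60 comparisons higher, 7 lower and 33 neither. This is 45.0% called against 31.5% of all genes. HMOX1, heme oxygenase, was called in all 5 knockdowns. It was higher in siCARM1 (0.69), siCHD4 (1.95), siHDAC2 (0.61) and siKDM1A (1.41) and lower in siGATAD2A (-1.08, SE 0.0733). Like MT2A, it was thus lower in siGATAD2A and higher in siKDM1A. In siCARM1, siCHD4 and siHDAC2, however, HMOX1 rose and MT2A was not called.

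Other genes of the NRF2 list went both ways in siGATAD2A. The NADPH-producing enzyme ME1 was higher in all 5 knockdowns (0.55 to 0.99), the largest value being the one in siGATAD2A. SLC7A11, the cystine importer, was higher in all but siCHD4 and reached 1.08 in siGATAD2A. NQO1 was lower in siCHD4 (-0.57) and siGATAD2A (-0.28) and higher in siKDM1A (0.39). In siGATAD2A 4 of the 12 were higher and 4 lower, where 33.9% of all genes were called, and the median was -0.12. In the other knockdowns its median was 0.13 to 0.15.

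Heat shock genes can be induced by metals as well. Of 12 listed, 11 were tested, with 8 of 55 comparisons higher, 6 lower and 41 neither, or 25.5% called against 31.5% of all genes. The list medians lay between -0.14 and 0.17. The chaperones HSPH1 (1.03) and HSPA8 (0.65) were higher in siCHD4, HSPH1 also in siGATAD2A (0.46), and HSPD1 was higher in siCARM1 (0.28) and siKDM1A (0.36). HSPA1A and HSPA1B are near-identical copies whose reads the counting can split or discard, so their opposite values in siCHD4 (1.10 and -1.12) are uncertain.

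The glucocorticoid list, 8 genes all tested, had 10 of 40 comparisons higher, 7 lower and 23 neither, or 42.5% called against 31.5% of all genes. Its medians were -0.09 to 0.25. ZBTB16, a glucocorticoid-induced zinc finger factor, was higher in siCARM1 (0.88), siHDAC2 (0.90), siGATAD2A (1.17) and siKDM1A (0.86). The phosphatase DUSP1 was higher in siCHD4 (0.41) and lower in siHDAC2 (-0.36) and siGATAD2A (-0.46), and KLF9 was lower in siCHD4 (-0.83) and siGATAD2A (-0.49). TSC22D3 (GILZ) was lower in siCHD4 (-0.63) and higher in siKDM1A (0.32). The receptor NR3C1 was higher in siCARM1 (0.46) and siGATAD2A (0.28).

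Across the 12 libraries the members were only loosely alike. Pearson's r of log2 CPM was 0.65 between MT2A and MT1X, 0.50 between MT2A and SLC30A1, 0.46 between MT2A and MT1F and -0.35 between MT2A and MTF1. The genes whose log2 CPM was most like that of the summed metallothioneins were PTMS (r = 0.973), TCP11L1 (0.969), COL25A1 (0.968), ARHGAP31 (0.956) and DNAJC18 (0.946). Those most like SLC30A1 were C6orf141 (0.940), ZMYM2 (0.926), SYNJ2BP (0.921), ZNF765 (0.919) and SLC22A3 (0.902). These values describe 12 libraries of 6 groups, which share treatments and depth, and the 2 sets hold the 5 highest of all genes tested outside the list.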

How the data were processed

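Per the labels, HEK293T RNA was made into directional paired-end libraries, and the processing notes name CASAVA 1.4, STAR 2.7.10 and hg19. The authors deposited raw counts per Ensembl gene for each library, in 3 columns (unstranded, forward and reverse), with no normalization. The annotation release is not given in the sources used here. Reverse-strand counts were used: the kit is directional and the forward total was 7.93% to 8.40% of the reverse. Fragments with several locations are not counted, which lowers genes with near-identical copies. Identifiers were matched to GENCODE release 44 on GRCh37. The 1954 without a match held 1.75% to 2.61% of counts and, with 44 pseudoautosomal copies, were not tested.

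CPM, FPKM and log2 fold changes were computed from the counts. A model of 6 group means was fitted to the 12 libraries over 12830 coding genes by edgeR 4.0.16 (R 4.3.3) with TMM factors of 0.98 to 1.01 and the quasi-likelihood test, and p-values were adjusted over all genes tested within a comparison. The common coefficient of variation was 3.47%. The scripts were tested on simulated counts. All 8 genes are named. From each list at most 5 genes are named, those called in most comparisons and then by size, and genes called in none were left out. The values of 1 listed gene are not reported here. The 5 genes most alike are named by Pearson's r. The members and lists were chosen with earlier results of these data known. Alternatives were RLE factors, DESeq2 1.42.0, a replicate block, only the groups compared, unstranded counts, other filters, no fold minimum and leaving out each library.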

Additional observations from a re-analysis of the deposited data

Results flagged for a closer look

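MT2A was singled out because it was called in opposite directions in a pair of knockdowns and the difference itself passed the test. With opposite calls against the same siCTL in one fit, that difference follows from them and is not separate support. The log2 fold change from siCTL was -0.99 in siGATAD2A and 0.74 in siKDM1A, and siGATAD2A against siKDM1A gave -1.73 (SE 0.123, edgeR's quasi-likelihood test, adjusted p = 5.5e-13). Both siGATAD2A libraries were below, and both siKDM1A libraries above, all 10 other libraries. With 2 libraries in a group, single libraries could not be tested as outliers.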

How the results depend on the processing

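The calls of MT2A in siGATAD2A and siKDM1A kept their direction and their side of the threshold under every alternative run, as did those of SLC30A1 in siCHD4 and siKDM1A. Among the other alternatives, DESeq2 ended the call of MT1F in siCARM1 (-1.01, adjusted p = 0.077). SLC30A1 in siHDAC2 fell under the fold minimum in counts without regard to strand (0.23) and with filterByExpr on every biotype (0.25). With no fold minimum, SLC30A1 in siCARM1 (0.23) and MTF1 in siGATAD2A (0.25) were called, and so were 5437 genes in siKDM1A, 6598 in siGATAD2A, 4544 in siHDAC2 and 5993 in siCARM1. The lists then gave 14 calls of exporters, 31 of importers, 21 of copper genes and 34 of heat shock genes. With FPKM larger than 1, MT1F and MT1X were not tested, and 3 genes passed the test over the 6 groups. Without regard to strand the summed metallothionein level was 13.3 CPM in siCHD4 and 24.5 CPM in siKDM1A, over smaller library totals.

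Leaving out 1 library at a time gave these ranges of log2 fold change against siCTL. For MT2A they were -0.16 to 0.13 in siCARM1 and -0.378 to -0.082 in siCHD4. MT1F gave -1.26 to -0.69 in siCARM1, -0.791 to 0.082 in siGATAD2A and -0.074 to 0.50 in siKDM1A. MT1X gave -2.12 to -0.87 in siGATAD2A, -0.92 to 0.32 in siKDM1A, -0.82 to 0.42 in siHDAC2, -0.94 to 0.31 in siCHD4 and -0.87 to 0.36 in siCARM1. The highest MT1X value always came without siCTL replicate 1. Without siCTL replicate 2, MT1X in siCHD4 was called at -0.94 (adjusted p = 0.027). MTF1 gave 0.23 to 0.43 in siCHD4 and 0.19 to 0.30 in siGATAD2A, called in the latter without siCTL replicate 1 or siGATAD2A replicate 2. SLC30A1 gave 0.10 to 0.35 in siCARM1 and 0.26 to 0.29 in siHDAC2.

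Between knockdowns, values near 0 changed sign. The ranges were -0.33 to 0.32 (MT1X) and -0.24 to 0.006 (SLC30A1) for siCARM1 against siCHD4, -0.44 to 0.20 (MT1X) and -0.17 to 0.082 (SLC30A1) for siCARM1 against siHDAC2, and -0.34 to 0.30 (MT1X) for siCARM1 against siKDM1A. They were -0.51 to 0.37 (MT1F) and -0.017 to 0.19 (MTF1) for siCHD4 against siGATAD2A and -0.22 to 0.20 (MT1X) for siCHD4 against siKDM1A. For siHDAC2 against siKDM1A they were -0.033 to 0.22 (MT1F), -0.10 to 0.32 (MT1X) and -0.008 to 0.09 (MTF1). The count of calls between knockdowns ran from 15 to 20.

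Replicate numbers did not pair the libraries: the correlation of same-numbered deviations was -0.11 to 0.14 over 15 pairs of groups, above 0.1 in 1. With a replicate block the calls were 3310 in siKDM1A, 4336 in siGATAD2A, 2538 in siHDAC2, 6256 in siCHD4 and 3767 in siCARM1, and 18 between knockdowns. With the siHDAC2 numbers crossed, a setting chosen after seeing the data, 2519 genes were called for siCARM1 against siHDAC2 and 3830 for siHDAC2 against siGATAD2A, against 2482 and 3789 in the block as numbered. Canonical transcript lengths in the filter were also added after seeing the data. Low counts limit MT1F and MT1X, and the cause of the changes above was not tested.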
